A study of Mus musculus with 4 samples.

Results

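The 10 genes described here are Fgf5, Cer1, Fst, Otx2, Foxd3, Zic2, Lef1, Sall2, Sox3 and Sox4, a set named for the primed epiblast. They were chosen by name, and every probe set that the platform annotation gives to one of them was used, 22 probe sets of 45037, for 10 of 18193 genes measured. Where a gene had several, the brightest on average leads. The study hybridised total RNA of 4 mouse cultures to Affymetrix arrays, with 1 array for each: multipotent germline stem (mGS) cells, R1 embryonic stem (ES) cells, germline stem (GS) cells with a Trp53 knockout (KO), and GS cells. The labels give no genotype or strain beyond "Trp53 KO" and, in the title of that sample, ICR, and no age, passage or number of clones. Both GS cultures grew in a modified StemPro-34 medium, whereas ES cell medium was used for mGS and ES cells, so medium and cell type changed together. The series sets mGS beside GS cells to look for molecules of the conversion of GS into mGS cells. With 1 array a group nothing below could be tested against replicates, and the number of arrays limits the precision.

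Before implantation the mouse epiblast is naive, and after it the cells pass to a primed state in which they answer to FGF, Activin, Nodal and Wnt signals and prepare for gastrulation. Naive cells are captured as ES cells, which hold low or mixed levels of primed transcripts. Of the set, Fgf5 encodes a secreted FGF that marks the post-implantation epiblast, Cer1 a secreted antagonist of Nodal and BMP, and Fst the activin-binding protein follistatin. Otx2 encodes a homeodomain factor that drives mouse cells out of the naive state, Foxd3 a forkhead factor needed to maintain the mouse epiblast, and Zic2 a zinc finger factor. Lef1 encodes an HMG-box factor that works with beta-catenin in Wnt signalling, and Sall2 a zinc finger factor of the spalt family. Sox3 and Sox4 encode HMG-box factors of the SOXB1 and SOXC groups. Mouse Sox3 is also expressed in spermatogonia.

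Promoter sequences from RefSeq (GRCm38.p6) were matched by symbol for 7 of the 10 genes, all but Fst, Zic2 and Sox3. The 250 bases before the annotated start are shown for genes on whose transcripts the comparisons turn. By their leading probe sets, Otx2, Foxd3 and Fgf5 had signal above the array median on the mGS and ES arrays and not on the GS arrays. The leading Sox4 probe set was higher on the GS arrays. The Lef1 stretch lies before an internal start and is shown because it was the only one of these genes' promoters with the TCF and LEF motif. Capitals mark the motifs searched on both strands. The motif of TCF and LEF factors was CTTTGA, that of OTX factors was TAATCC, and that of SOX factors was ACAAAG. The octamer motif of POU factors was searched as ATGCAAA, and the TATA box motif as TATAAA.
Otx2 (chr14:48667645-48667894, minus strand): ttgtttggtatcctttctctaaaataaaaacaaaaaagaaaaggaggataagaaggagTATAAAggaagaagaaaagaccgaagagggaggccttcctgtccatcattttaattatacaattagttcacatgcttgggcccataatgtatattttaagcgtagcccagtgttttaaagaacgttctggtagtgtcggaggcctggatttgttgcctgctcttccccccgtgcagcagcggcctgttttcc
Foxd3 (chr4:99656049-99656298, plus strand): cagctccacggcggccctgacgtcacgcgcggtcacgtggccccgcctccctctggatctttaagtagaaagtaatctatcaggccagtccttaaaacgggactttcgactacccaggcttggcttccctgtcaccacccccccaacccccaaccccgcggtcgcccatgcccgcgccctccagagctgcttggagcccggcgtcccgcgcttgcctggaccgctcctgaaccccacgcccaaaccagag
Fgf5 (chr5:98253934-98254183, plus strand): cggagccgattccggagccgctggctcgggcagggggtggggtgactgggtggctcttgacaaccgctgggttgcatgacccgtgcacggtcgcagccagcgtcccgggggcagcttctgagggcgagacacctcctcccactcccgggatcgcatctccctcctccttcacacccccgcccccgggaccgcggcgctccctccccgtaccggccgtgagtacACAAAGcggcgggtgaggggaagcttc
Lef1 (chr3:131156044-131156293, plus strand): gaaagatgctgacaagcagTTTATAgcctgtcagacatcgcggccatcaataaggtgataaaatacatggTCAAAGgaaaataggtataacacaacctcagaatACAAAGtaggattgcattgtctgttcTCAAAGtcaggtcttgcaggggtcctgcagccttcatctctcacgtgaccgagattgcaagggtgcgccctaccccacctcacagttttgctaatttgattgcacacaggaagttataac
Sox4 (chr13:28953700-28953949, minus strand): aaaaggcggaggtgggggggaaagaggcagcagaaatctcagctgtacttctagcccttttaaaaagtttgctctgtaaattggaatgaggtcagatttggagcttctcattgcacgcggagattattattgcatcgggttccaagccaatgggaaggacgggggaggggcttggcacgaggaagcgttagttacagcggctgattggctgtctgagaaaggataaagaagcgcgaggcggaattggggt
The Otx2 stretch, read on the minus strand, holds 1 TATA box motif and the Fgf5 stretch 1 SOX motif. The Lef1 stretch holds the TCF and LEF motif at 2 places, both as TCAAAG on the minus strand, besides 1 SOX and 1 TATA box motif, and none of these overlap. None of the letters searched were in the Foxd3 and Sox4 stretches. Over 32851 promoters of this length, the TCF and LEF motif was in 13.8%, the OTX motif in 6.25%, the SOX motif in 16.5%, the octamer in 4.12% and the TATA box motif in 12.4%. Of the 14 promoters of these genes, the TCF and LEF motif was in 1, the OTX motif in 1 (at an internal Otx2 start), the SOX motif in 2, the octamer in 0 and the TATA box motif in 3. The Foxd3 and Fgf5 stretches had GC contents of 65.6% and 70.8%, the Otx2 stretch 42.0% and the Sox4 stretch 50.8%, against a median of 52.4% over all promoters. A motif match describes letters in a window only.

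The values are signals after quantile normalization of the 4 arrays. Signals under a floor of 82.7, the array median, were raised to it, so that a difference against the floor is a bound, and values under it have no order. Genes at least 2-fold apart (1 on the log2 scale) are called higher or lower. Markers of the labelled cell types were checked first. All 15 naive pluripotency factors listed were above the floor on the mGS and ES arrays, but so were 11 on the KO and 10 on the GS array, with Nanog, Nr0b1 and Prdm14 under it on both. Of 10 germline stem cell markers 9 were above the floor on the mGS and 5 on the ES array, and all 10 on both GS arrays. Etv5, one of these 10, was higher on the mGS and ES arrays, and the others were lower. The knockout was not checked at the targeted gene. Added dap control RNA, as the median of 6 probe sets in deposited signal, read 255 on the mGS and 271 on the GS array, against 2545 on the ES and 3055 on the Trp53 KO array. The mGS and GS arrays, and the ES and KO arrays, therefore form pairs by dap. They do not by the hybridisation controls: bioC read 3499 on the ES and 602 on the KO array, and bioB 1213 and 676, whereas the mGS and GS arrays had 3169 and 3066 for bioC and 1166 and 1083 for bioB. Setting mGS beside GS, or ES beside KO, stays within a pair by dap, and these comparisons share no array. Setting ES beside mGS, or KO beside GS, crosses the pairs, so that dap and the cell types cannot be told apart there. The part of the low bioB and bioC signals in the comparisons with the KO array was not tested.

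The 10 genes did not move as 1 group. Otx2, Foxd3, Zic2 and Fgf5 were above the floor on the mGS and ES arrays alone, Sox3 was higher on both GS arrays, Fst stood out on the ES array, and Cer1 was under the floor on every array.

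**Figure D1:**
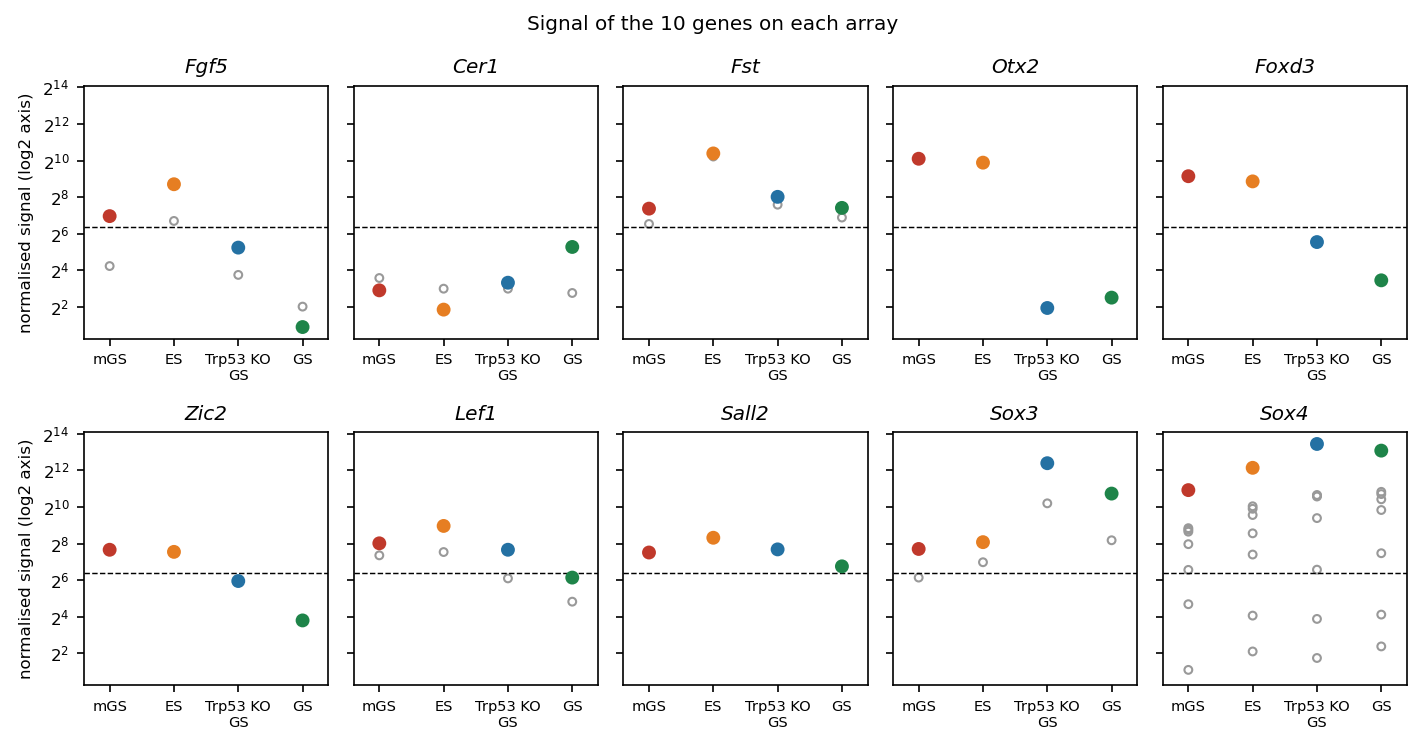
Normalised signal (log2 axis) of each gene on the mGS, ES, Trp53 KO GS and GS arrays, 1 array a group. Filled points are the leading probe set, open circles the gene's other probe sets, and the dashed line is the floor of 82.7. Otx2, Foxd3, Zic2 and Fgf5 lie above the floor on the mGS and ES arrays only, and Sox3 is highest on the Trp53 KO GS array.

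Among the factor genes, Otx2 read 1094 on the mGS and 944 on the ES array, against 3.83 on the KO array and 5.67 on the GS array. It was thus well above the floor on both arrays in ES medium and under it on both in GS medium. Otx2 was at least 13.2-fold higher on the mGS than on the GS array and at least 11.4-fold higher on the ES than on the KO array. The single Otx2 probe set is of a type (_a_at) that the annotation of such arrays gives to several transcripts of 1 gene.

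Foxd3 read 565 on the mGS and 464 on the ES array, against 46.6 on the KO and 10.9 on the GS array. The difference was at least 6.83-fold for mGS against GS and at least 5.61-fold for ES against KO. Zic2 followed the same division at lower signal, 203 on the mGS and 187 on the ES array against 61.9 on the KO and 13.9 on the GS array. It was at least 2.45-fold higher on the mGS than on the GS array and at least 2.26-fold higher on the ES than on the KO array. With the floor at the 60th percentile the Zic2 bounds were log2 differences of 0.40 and 0.28, under 2-fold, and with values as deposited ES against KO was at 0.97. Between the ES and mGS arrays Otx2, Foxd3 and Zic2 had log2 differences of -0.21, -0.28 and -0.11, all smaller than 0.45, the SD between probe sets of a gene in that comparison.

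Lef1 was highest on the ES array, with a signal of 499.8, then 259 on the mGS, 203 on the KO and 70.6, under the floor, on the GS array. The mGS signal was at least 3.13-fold above that of GS, and the ES signal 2.47-fold above that of KO. With the floor at the 60th percentile the Lef1 difference of mGS from GS was 0.75 on the log2 scale, under 2-fold. The mGS and KO signals were within 2-fold, at a log2 difference of 0.35. A second Lef1 probe set ran in the same order for the ES-medium arrays, at 186 on ES and 164 on mGS, against 68.5 on KO and 28.3 on GS, both under the floor.

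Sall2 was above the floor on all arrays, at 183 on mGS and 319 on ES, against 205 on KO and 108 on GS. No comparison of the 4 reached 2-fold, and the KO array lay above the mGS array, so Sall2 did not follow the medium. With values as deposited KO against GS was past 2-fold, at 1.06 on the log2 scale. ES against GS, a pair outside the 4 comparisons, was at 1.56.

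Sox3 went the other way from the factors above. Its signal was 209 on the mGS and 270.3 on the ES array, against 5385 on the KO and 1703 on the GS array, so that both GS cultures lay above both cultures in ES medium. Sox3 was 8.15-fold lower on the mGS than on the GS array and 19.9-fold lower on the ES than on the KO array. Its second probe set read 70.6 (under the floor) and 126 on mGS and ES, against 1177 and 290.2 on KO and GS, with log2 differences of -1.81 and -3.22 in the same comparisons.

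Sox4 had 8 probe sets, of which 6 were above the floor on every array and 2 on none. The leading one read 1942 on the mGS and 4522 on the ES array, against 11157 on the KO and 8674 on the GS array. It was lowest on the mGS array, 4.47-fold below GS, and the 5 other measured probe sets were lower there too, by log2 differences of -2.08 to -0.91. For ES against KO the leading probe set was 2.47-fold lower, but the others disagreed, from -1.09 to 0.83 on the log2 scale, and 2 of the 6 passed 2-fold. With arrays centred on their medians, with values as deposited and with the mean of all 8 probe sets, this Sox4 difference was -0.82, -0.96 and -0.39. That mean includes the 2 probe sets under the floor.

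Of the secreted factors, Fgf5 read 124 on the mGS and 417 on the ES array, against 37.7 on the KO and 1.86 on the GS array. Fgf5 was at least 5.04-fold higher on the ES than on the KO array. The mGS signal was not far above the floor, so that the difference from GS was a bound of at least 1.51-fold, under the 2-fold threshold. This bound rests on the floor, and at the 30th percentile it was 2.05 on the log2 scale. The second Fgf5 probe set was above the floor on the ES array only, at 104. Its bound for ES against KO was at least 1.25-fold, under the threshold.

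Fst read 165 on the mGS and 1338 on the ES array, against 258 on the KO and 170.1 on the GS array. By this leading probe set the ES array stood apart from the other 3, which lay within 2-fold of each other. Fst was 5.18-fold higher on the ES than on the KO array, while mGS and GS differed by -0.04 on the log2 scale. The second probe set read 92.4 and 1191 on mGS and ES, against 192 and 118 on KO and GS. The ES array was highest there too, but mGS and KO were not within 2-fold.

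Cer1 had no signal above the floor from either of its 2 probe sets, at most 38.7, on the GS array. No difference is given for it. In bulk cultures, fewer cells of a type and less RNA per cell cannot be told apart for any of these transcripts.

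In the comparison of mGS with GS cells, Otx2, Foxd3, Lef1 and Zic2, 4 of the 10, passed 2-fold upward on the mGS array, and Sox3 and Sox4 were lower. Fgf5, Fst and Sall2 were within 2-fold, and Cer1 was not compared. Over all genes compared, 15.3% were higher and 16.5% lower, 31.8% in all. The median over the 9 genes compared was 0.76 on the log2 scale, beside -0.04 over 11981 genes. A gene above the floor on the mGS but not on the GS array could only come out as higher, which holds for Otx2, Foxd3, Lef1, Zic2 and Fgf5. With the KO array in place of the GS array, Lef1 fell short of 2-fold and 3 genes were higher, a setting added after seeing the data. Sox3 was then at -4.69 on the log2 scale.

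For ES against KO cells, 6 of the 10 genes were higher and 2 lower, the same 2 Sox genes, with Sall2 at 0.64. Of all 12325 genes compared, 18.8% were higher and 21.5% lower, 40.3% in all. The median of the 9 genes was 1.30, against -0.07 over all. The 4 genes called higher on mGS over GS were all called here as well, with Fgf5 and Fst besides. Otx2, Foxd3, Zic2 and Fgf5 were above the floor on the ES array and under it on the KO array. They could therefore only come out as higher here too, while Lef1 and Fst were above the floor on both. At least 2-fold apart in all 4 cross pairs of an ES-medium with a GS-medium array were Otx2, Foxd3 and Zic2, higher on the mGS and ES arrays, and Sox3, lower. These are 4 of the 10 genes, where 7.65% of all genes compared were higher and 8.38% lower in this way, 16.0% in all. The direction of Otx2, Foxd3 and Zic2 was again set by the floor, which they were under on both GS arrays, whereas Sox3 was above it on every array. With values as deposited or the floor at the 60th percentile 3 genes were apart in this way. Sox4 missed the threshold, with a smallest log2 gap of -0.94.

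**Figure D2:**
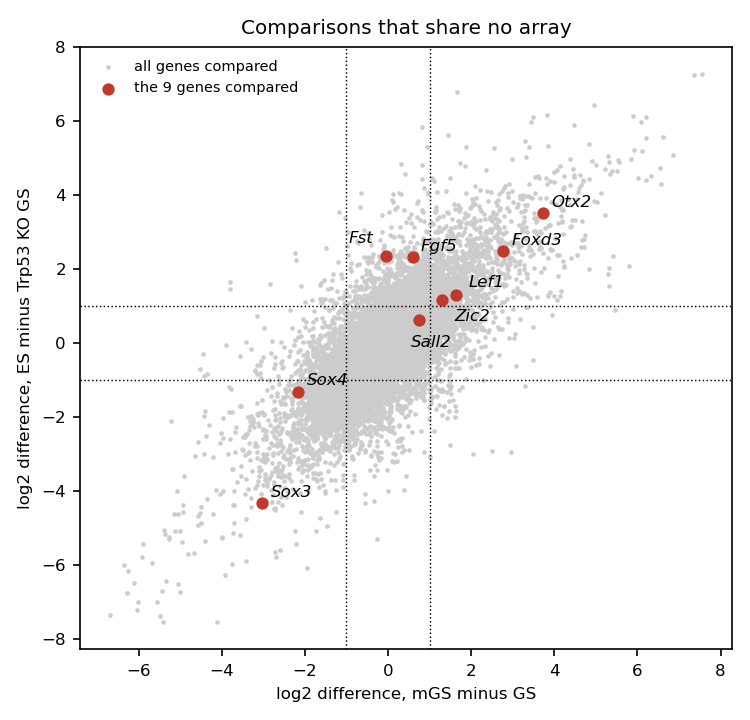
Log2 difference of mGS minus GS (horizontal) and of ES minus Trp53 KO GS (vertical), which share no array. Grey points are all genes compared in both, red points the 9 genes of the set that had a value, and dotted lines mark 2-fold. Otx2 and Foxd3 lie high in both, Sox3 and Sox4 low in both, and Fst is near 0 on the horizontal axis and at 2.37 on the vertical one.

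The comparison of ES with mGS cells sets 2 cultures of the same medium beside each other. Fst was 8.10-fold, Fgf5 3.35-fold and Sox4 2.33-fold above mGS, while no gene of the 10 was 2-fold lower. The second Fgf5 probe set gave a bound of at least 1.25-fold, under the threshold. All genes gave 6.90% higher and 5.13% lower, 12.0% in all. Lef1, at 0.95 on the log2 scale, was just short of the threshold and was past it with values as deposited, at 1.04. Its second probe set gave only 0.18, and the mean of its probe sets 0.57. For Sox4, the 6 measured probe sets agreed in direction, from 0.59 to 1.22. The mean over all its probe sets, including those under the floor on every array, was 0.79, under the threshold.

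Fibroblast markers were higher on the ES than on the mGS array in 13 of 15 compared. They were also higher in 15 of 15 for ES against KO, 8 of 12 for mGS against GS and 7 of 13 for KO against GS. Summed over 16 genes, their signal was 90352 on the ES and 25460 on the mGS array, 8304 on the KO and 4079 on the GS array. On the ES array 15 of the 16 were above the floor, all but Lum, on the mGS array 12 (not Col3a1, Dcn, Lum and Postn), on the KO array 13 and on the GS array 10. The part of the fibroblast markers in the Fst, Fgf5 and Sox4 differences, and in the other comparisons of the 10 genes, was not tested. Added control RNA differed between the ES and mGS arrays, as given above, and its part in the differences was not tested. Of 12 markers of primitive and visceral endoderm, 3 were above the floor on the ES and 4 on the mGS array. On the KO array 5 were, and on the GS array 3, with Hnf4a, Sox17, Sox7 and Ttr under it throughout. Their summed signal was larger in GS medium: 4824 (KO) and 5388 (GS), but 1128 (mGS) and 1114 (ES). Afp had 2784 (KO) and 2646 (GS), and was under the floor in ES medium. Hhex fell from 1114 (KO) and 1747 (GS) to 229 (mGS) and 196 (ES). Dab2 went the other way, above the floor only for mGS (192) and ES (391). Of 10 neuroectoderm markers 4 were above the floor on the ES, 3 on the mGS and 2 on each GS array, with Pax6, Pax3, Sox1 and Neurog1 under it on all. Olig1 and Olig2 were above the floor on the ES array alone, at 1996 and 1182, and at least 24.1-fold and 14.3-fold higher there than on the mGS array. The part of these markers in the Fst and Fgf5 differences was not tested. Of 7 mesoderm markers 2 to 4 were above it, and of 8 Sertoli and other somatic testis markers 3 to 5.

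In the comparison of Trp53 KO with GS cells, Sox3 was 3.16-fold higher on the KO array and Lef1 at least 2.45-fold higher. The second Sox3 probe set gave a log2 difference of 2.02, and the second of Lef1 was under the floor on both arrays. Fst and Sall2 had log2 differences of 0.60 and 0.93, and Sox4 one of 0.36. Fgf5, Cer1, Otx2, Foxd3 and Zic2 were under the floor on both arrays and were not compared. Over all genes 9.77% were higher and 6.93% lower, 16.7% in all. The split over all genes was 1135 higher and 805 lower, and turned to 838 higher and 1072 lower with arrays centred on their medians, where the median of all genes shifted by -0.16. Sox3 was then at 1.24 and Lef1 at 1.26, and Sox4 at -0.04, so that the direction of Sox4 depended on the scaling. With the mean of its probe sets Lef1 was at 0.51, and with the floor at the 60th percentile at 0.40.

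**Figure D3:**
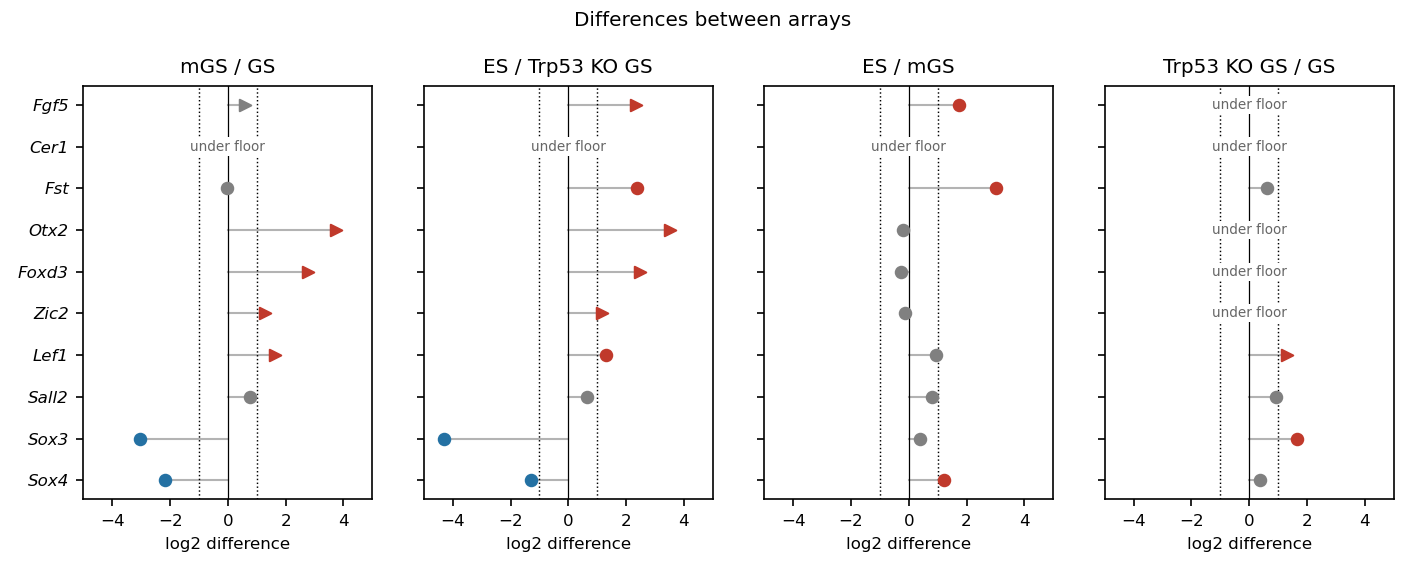
Log2 difference of each gene in the 4 comparisons, the first-named array minus the second. Circles are differences between signals above the floor, triangles are bounds against the floor of 82.7, dotted lines mark 2-fold, red and blue mark genes at least 2-fold higher and lower. Fst and Fgf5 differ between the ES and mGS arrays, where Otx2, Foxd3 and Zic2 stay near 0.

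Other genes of the primed epiblast and of gastrulation also went both ways between mGS and GS. Of 30 listed, 28 were measured and 21 compared, with 12 higher, 5 lower and a median log2 difference of 1.17. Zic5, at least 11.7-fold, Cldn6, a tight junction gene, at least 7.94-fold, and Utf1, a chromatin factor of pluripotent cells, 37.1-fold, were the highest. The homeobox gene Lhx1, at least 10.7-fold, the forkhead gene Foxa2, at least 8.29-fold, and the Wnt target Sp5, at least 7.90-fold, were lower on the mGS array. For ES against KO, 14 of 21 were higher and none was lower, with a median of 1.76. Between KO and GS, 1 of 16 was higher and 6 were lower, among them Lhx1, at least 10.7-fold, Sfrp2, 8.82-fold, and Sp5, 7.48-fold. For ES against mGS, 5 of 21 were higher, led by Car4, 4.02-fold, and Wnt8a was lower.

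Lef1 acts with beta-catenin, and the other genes of that pathway went both ways. Of 29 Wnt and TCF genes measured, 24 were compared between mGS and GS, with 5 higher, 7 lower and a median of -0.37. Tcf7l1, the TCF factor that represses Wnt targets in ES cells, was 5.74-fold higher, with signals of 755 on mGS and 1156 on ES against 99.1 on KO and 132 on GS. Tcf7l2 was 3.69-fold lower, and the receptor gene Fzd5 was 20.0-fold higher and Fzd2 8.14-fold lower. For ES against KO, 7 of 23 were higher and 6 lower (median -0.31). In ES against mGS, 3 of 25 were higher, Ccnd1 by 2.93-fold, and none was lower, and in KO against GS 4 of 22 were lower, among them Ccnd1, 7.95-fold, and none was higher.

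Fst and Cer1 encode antagonists in the Activin, Nodal and BMP pathway, of which 29 genes were measured. Between mGS and GS 13 of 26 were higher and 4 lower (median 0.78). Nodal itself was at least 32.1-fold higher, and Smad2, a signal transducer of activin and Nodal, 2.69-fold lower. ES against KO gave 14 of 25 higher and 2 lower, with a median of 1.52. Between ES and mGS 4 of 26 were higher, among them the activin subunit gene Inhba, 9.93-fold, and the BMP antagonist gene Grem1, 6.71-fold. Inhba read 185 on the mGS and 1834 on the ES array, against 71.3 on the KO and 88.9 on the GS array, so that the ES array stood apart for the ligand gene as it did for Fst. Fibroblast markers were also higher on the ES array, and their part in the Inhba and Grem1 differences was not tested. Bmp4 was 3.28-fold lower on the ES than on the mGS array. In KO against GS Smad3 was 2.18-fold higher and Chrd at least 3.60-fold lower, of 19 compared.

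Of the FGF pathway, 18 genes besides Fgf5 were measured and 17 compared in each comparison. Between mGS and GS 5 were higher and none lower, with a median of 0.14, led by the receptor gene Fgfr2, 4.64-fold. ES against KO gave 9 higher and none lower, Spry4, an inhibitor of FGF signalling, by at least 13.6-fold. Between ES and mGS, where Fgf5 itself was 3.35-fold apart, all 17 were within 2-fold. In KO against GS 6 were lower, Dusp4 by at least 8.24-fold, and none was higher.

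**Figure D4:**
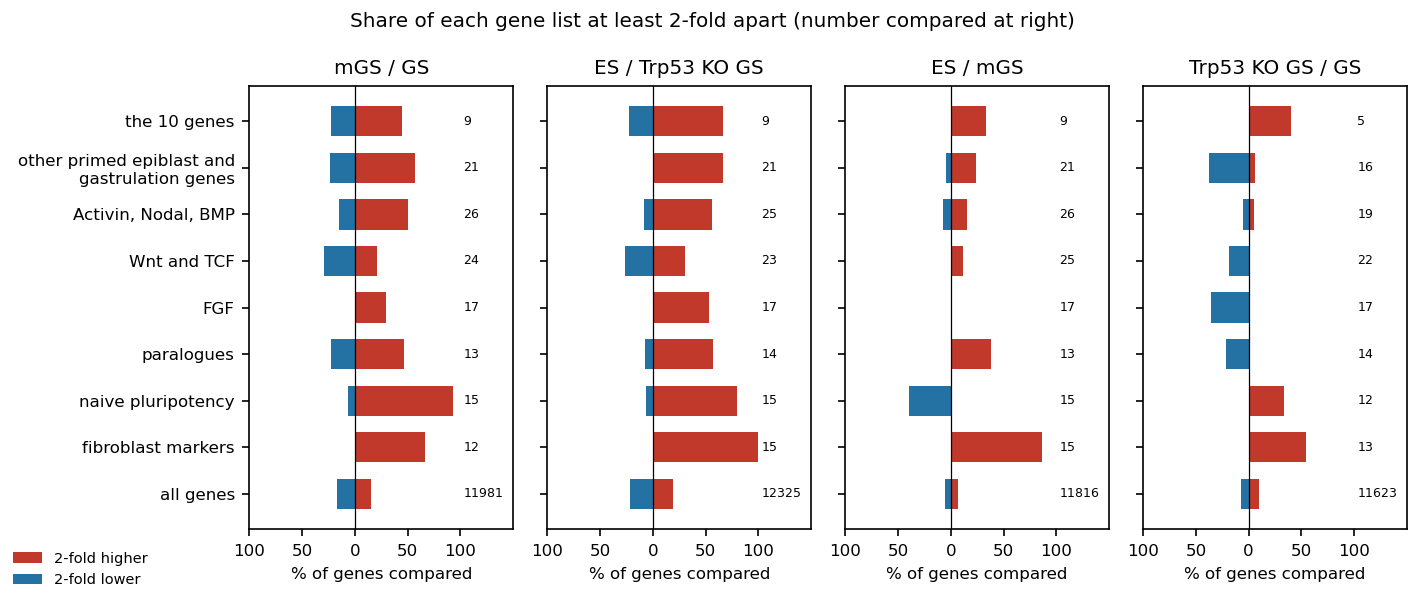
Share of each gene list at least 2-fold higher (red, to the right) or lower (blue, to the left) in the 4 comparisons, as a percentage of genes compared, whose number stands at the right of each bar. The lists other than the 10 genes leave out those genes; the bottom bar is all genes. Naive pluripotency factors are 14 of 15 higher for mGS against GS, and fibroblast markers 13 of 15 higher for ES against mGS.

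Some paralogues of the 10 genes differed from them in pattern, and others followed them. Sox2, like Sox3 a SOXB1 gene, read 11518 on the mGS and 11768 on the ES array, against 185 on the KO and 1070.1 on the GS array. It was 10.8-fold higher on mGS than on GS where Sox3 was 8.15-fold lower, and 5.79-fold lower on KO than on GS where Sox3 was 3.16-fold higher. Zic1 read 1.75 on the mGS and 77.8 on the ES array, against 69.3 on the KO and 5085 on the GS array, so that it was above the floor on the GS array alone. Zic5, by contrast, followed Zic2, with 963 on mGS and 2023 on ES against 89.6 on KO and 17.9 on GS. The spalt gene Sall3 was at least 14.3-fold lower on the mGS than on the GS array, where Sall2 was at 0.76 on the log2 scale. Of 22 paralogues measured, 13 were compared between mGS and GS, 6 higher and 3 lower. For ES against KO 8 of 14 were higher and 1 lower, for ES against mGS 5 of 13 were higher and none lower, and for KO against GS none of 14 was higher and 3 lower.

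Naive pluripotency factors, set beside the primed ones, were higher on the mGS array in 14 of 15 cases, with a median of 3.74. Tcl1 was 3.58-fold lower. Between ES and mGS, 6 of the 15 were lower, none was higher, and the median was -0.64. Pecam1 was 4.88-fold, Tbx3 4.62-fold and Nr5a2 4.37-fold lower there. In the same comparison Fgf5 and Fst were higher and Otx2, Foxd3 and Zic2 within 2-fold, as given above.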

How the data were processed

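RNA of 4 cultures was measured, 1 array each. Trizol was used for the total RNA and the cRNA carried biotin, per the labels' protocols. Each probe set has 1 intensity, deposited by the authors on a linear scale, with a trimmed mean of 500 on every array (2% trimmed at each end); the sources used here do not name the summarising software. Of 45101 probe sets, 64 controls were set aside. The log2 intensities the authors deposited had array medians ranging over 0.29, so log2 values were quantile normalized. The platform annotation lists 35890 probe sets, 34754 matched by gene identifier to GRCm38.p6 gene names; 932 with several symbols were left out. The probe set of highest mean stands for a gene, and values under the array median were raised to it. A fold is the higher over the lower signal.

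Named genes of the lists other than markers were, per list and comparison, at most the 4 called genes with the largest difference in each direction. Tcf7l1, Sox2, Zic1, Zic5 and Inhba are given with all signals because a sentence turns on them. Markers were to be given as counts, summed signal and those under the floor. The signals of Olig1, Olig2, Afp, Hhex and Dab2, and the direction of Etv5 among germline stem cell markers, are given outside that rule. The members and lists were chosen with earlier results of these data known. The differences were tested on simulated data with changes planted only in genes well above the floor. All simulated arrays were the GS array with added noise, and the changes, as many up as down, were on the mGS array alone. Differences that are bounds against the floor, and changes in as large a share of genes as between these cultures, were not covered by the simulation. Trp53 itself is not reported here. Alternatives were values as deposited, median centring, the mean of probe sets, a set without _x_at, _s_at, _a_at and _g_at probe sets, the floor moved to the 30th or the 60th percentile or removed, 32 added to each value in place of a floor, and several-symbol probe sets included. Motifs were searched in 250 bases before each RefSeq start. Software was Python 3.11.15, pandas 2.3.3, numpy 2.4.6, matplotlib 3.10.9 and scipy 1.17.1.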

Additional observations from a re-analysis of the deposited data

How the results depend on the processing

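No paired analysis was possible because each group has 1 array, and for the same reason no replicate could be left out. Over 9 other settings, 248 values of single genes moved by less than the SD between probe sets of a gene, and 35 moved by more. No called difference changed sign. Genes without a value in the main or in the other setting are outside these counts. Among those left out are Otx2 without _a_at probe sets, and Fgf5, Foxd3 and Zic2 for KO against GS. For mGS against GS, 2 genes were higher with the floor at the 60th percentile in place of 4, and the median of 0.76 was 0.32 there, 0.35 with the KO array in place of GS, and 1.31 with the floor at the 30th percentile or no floor. For ES against KO, 1 gene was lower in place of 2 with values as deposited, with centred arrays, with the mean of probe sets, and with the GS array in place of KO, where the median was 2.33. With values as deposited, the floor at the 60th percentile, or no _x_at, _s_at, _a_at and _g_at probe sets, 5 were higher in place of 6, and 3 genes in place of 4 were apart in all 4 cross pairs. In the last of these settings Otx2 had no value, its only probe set being an _a_at one. For ES against mGS, 1 gene, Cer1, was lower with no floor. For KO against GS, 1 gene was higher in place of 2 with the mean of probe sets or the floor at the 60th percentile, where the median was 0.42; without a floor 5 were higher and 1 lower, and with the pseudocount 4 were higher. Over all genes, no floor gave 3999 higher and 4021 lower for mGS against GS (1838 and 1976 with it), 4267 and 4564 for ES against KO (2314 and 2649), 2747 and 2574 for ES against mGS (815 and 606), and 3166 and 2597 for KO against GS (1135 and 805). The floor at the 30th percentile gave 1397 and 1167 for ES against mGS and 1759 higher for KO against GS, and the pseudocount 975 lower for ES against mGS. Apart from the floor and pseudocount settings, whose construction adds or removes values near the background, the cause was not tested.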

Other observations

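The genes whose pattern over the 4 arrays lay nearest to each of the 9 measured genes were found by the root mean square distance of floored log2 signals, centred on each gene's own mean. Nearest to Otx2 was Slc6a15, at 0.037, with signals of 1062 on the mGS and 887 on the ES array, against 27.3 on the KO and 17.1 on the GS array. Apela, which encodes a small secreted peptide, came next at 0.092. Skil, a gene for a SMAD corepressor, was nearest to Foxd3 at 0.030, and Magel2 to Zic2 at 0.019. Has2, the gene of a hyaluronan synthase, was nearest to Fgf5 at 0.031, and its signals were 123 on the mGS and 436 on the ES array, against 22.7 on the KO and 11.4 on the GS array. Nearest to Lef1 was Pmepa1, at 0.097, and to Sall2 Plgrkt, at 0.038. The unnamed transcript 2610037D02Rik was nearest to Fst, at 0.023.

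Nearest to Sox3 was Tex15, a gene of meiotic germ cells, at 0.10, with signals of 321 on the mGS and 455 on the ES array, against 9698 on the KO and 3135 on the GS array. Ddr1, the gene of a collagen receptor, was nearest to Sox4, at 0.071. Its signals were 1786 on the mGS and 4675 on the ES array, against 10895 on the KO and 7949 on the GS array. Genes under the floor on the same arrays are alike there by construction, which holds for the named neighbours of Otx2, Fgf5 and Zic2. Other distances also rest on raised values. The transcript 2610037D02Rik was under the floor on the mGS and GS arrays, at 27.4 and 41.5, where Fst was above it. Foxd3 was under it on both GS arrays and Lef1 on the GS array, where Skil and Pmepa1 were above it.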
